A study of Petromyzon marinus with 6 samples.

Results

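Isolated single-exon loci are stretches of the sea lamprey genome from which brainstem RNA was read as 1 uninterrupted exon, with no other transcribed locus close by. They were chosen by 3 values of the deposited table, in which StringTie loci carry their exon positions and their counts. A member had exactly 1 block once its overlapping exon entries were merged, a mean raw count of at least 50 over the 6 samples, and no other locus on either strand within 5000 bp on its contig. Of 57134 loci in the table, 23191 had 1 exon block, and 2018 of these reached the count minimum. Isolation by the distance held for 3372 of the single-exon loci at any count, and 191 loci met both conditions. One of them stood among the loci that the study lists as changed and was left out. Those lists cover GABA and, in a separate experiment, baclofen (a GABAB receptor agonist). This left 190 loci, 0.333% of the table. The count minimum, the number of blocks and the distance chose these loci, and their values are given below as a description only. The length, the strand and the spread between replicates were not used directly in the choice. The count minimum still bore on length and spread. It set a higher floor per length for short loci, and low counts vary more between replicates. The contig entered the choice through the distance, since a locus alone on its contig always met that condition. The response to treatment entered it only through the 1 locus left out.

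The samples were brainstems of larval sea lampreys of 5 to 7 years of age, collected in a river, all with a complete spinal cord transection. The GABA-treated larvae were kept after the injury in water with GABA, an inhibitory neurotransmitter, at 500 µM, and the control larvae in plain water. The study's methods put the dissection at 29 days post-lesion, whereas the text deposited with the samples has 9 days. Each group had 3 samples, and each sample was the pooled RNA of 4 larvae, so that differences between single animals were averaged within a sample and every sample, controls included, came from injured animals.

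Most protein-coding genes of vertebrates have introns. Intronless genes are a minority and include replication-dependent histone genes, many G protein-coupled receptor genes and copies of spliced messages that were returned to the genome by reverse transcription. When transcripts are assembled from reads, a locus without an intron can be such a gene, an untranslated or other terminal part of a longer gene, unspliced RNA or a long non-coding RNA. With no splice site to read, its strand comes only from the stranded library. The genome assembly used here, Pmar_germline 1.0, was made from germline DNA, and lampreys discard part of their germline genome from the cells of the body early in development. The deposited table names loci by StringTie identifiers and pairs none of the members with a gene name, so no function is given for them, and no sequence of this build was used here.

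The 3 GABA-treated libraries held 13266414 to 14666153 counted fragments and the 3 control libraries 12261374 to 14248306. Levels are given in CPM (counts scaled to the library total, with TMM factors), and the deposited counts are not scaled. The neuronal genes fixed as tissue markers (CPLX1, a protein of synaptic vesicle release, CARTPT, a neuropeptide precursor, and GABRA5, a GABA receptor subunit) summed to 1230 to 1480 CPM in GABA-treated and 1300 to 1473 CPM in control samples. Blood and immune markers (PTPRC, CD62L, VLRA and TLR2) summed to 33.9 to 44.3 CPM in GABA-treated and 32.0 to 55.3 CPM in control samples, with none of the 4 at 0 in any sample. The ranges of both sums overlapped between the groups. Of the neuronal genes, CPLX1 overlapped, whereas CARTPT, at 309 to 376 CPM in GABA-treated and 407 to 437 CPM in control samples, was lower without overlap, and GABRA5, at 89.6 to 103 CPM in GABA-treated and 50.6 to 83.5 CPM in control samples, was higher without overlap. The symbols of all these markers come from the study's lists of loci changed with GABA or, in the separate experiment, with baclofen. The lists were not separated for the markers. A difference between the groups in them is therefore not taken as an independent measure of the tissue.

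Isolated single-exon loci often sat by themselves on a contig. Among the 190 members, 99 (52.1%) had no other locus on the same contig, and they spread over 181 contigs in all, of the 6286 that the table holds. A pair of members was found on 7 contigs. One contig, PIZI01000034.1, held 3, which were MSTRG.22124 (PIZI01000034.1, bases 219401 to 223054), MSTRG.22306 (bases 3684701 to 3688308) and MSTRG.22391 (bases 5927145 to 5931393). For comparison, 2 groups of 190 multi-exon loci were drawn, each locus the nearest in mean CPM to a member, from all multi-exon loci and from the 1864 multi-exon loci that were themselves isolated by the same distance. Of these, 6 (3.16%) of the abundance-matched multi-exon loci and 74 (38.9%) of the abundance-matched isolated multi-exon loci were alone on their contig. At the other end, 41 members (21.6%) lay on contigs with over 100 loci, against 83 (43.7%) of the isolated multi-exon and 128 (67.4%) of the multi-exon loci. Being alone on a contig satisfies the distance rule by itself, so only the isolated multi-exon group met the same condition. These shares are descriptions of groups chosen on level and were not tested.

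Many members lay at the very start of a contig. A start at base 1 was found in 20 members (10.5%), against 6 (3.16%) of the isolated multi-exon loci and 3 (1.58%) of the multi-exon loci, and 35 members (18.4%) began within the first 500 bases, against 27 (14.2%) and 6 (3.16%). Of the 20 at base 1, 13 were read on the plus and 7 on the minus strand. For the 99 members that were alone, the last base of the locus lay between positions 383 and 27757, with a median of 6386. The table gives no contig lengths. Of the members, 72 (37.9%) began at base 5000 or before, against 60 (31.6%) of the isolated multi-exon and 18 (9.47%) of the multi-exon loci. For all these loci, the distance to a neighbour on that side was limited by the end of the contig. A part of the same gene on another contig would not have been seen.

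**Figure D1:**
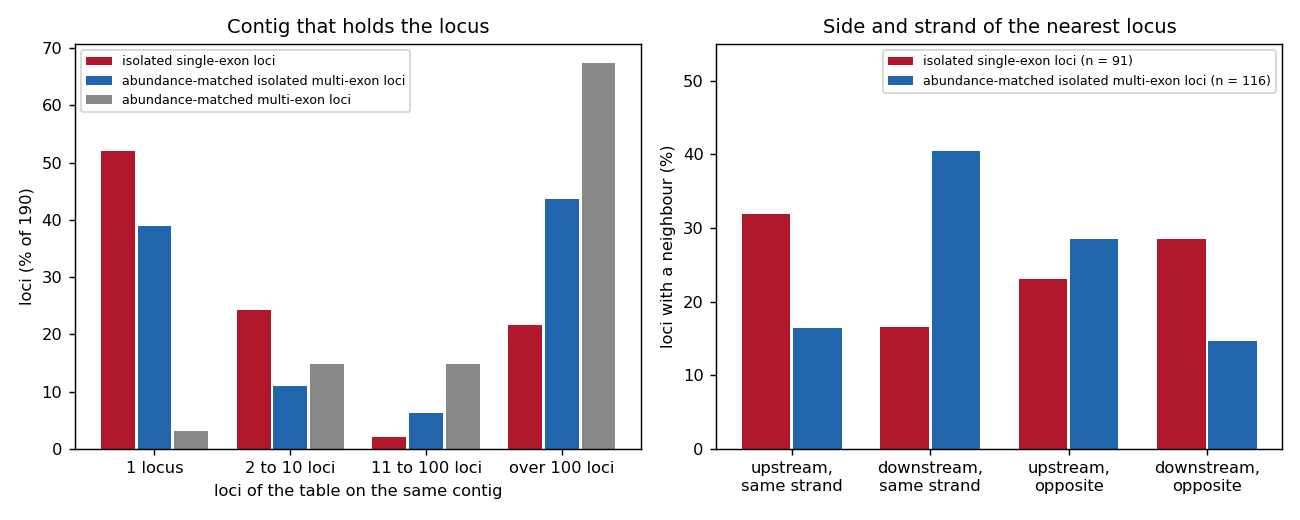
Left, the share of each group of 190 loci (%) by the number of loci on the same contig, for isolated single-exon loci, abundance-matched isolated multi-exon loci and abundance-matched multi-exon loci. Right, the share (%) of the loci with a neighbour on the contig, by the side and strand of the nearest locus, 91 single-exon and 116 isolated multi-exon loci. Single-exon loci were alone in 52.1% and had their nearest neighbour upstream on the same strand in 31.9%, against 38.9% and 16.4% of the isolated multi-exon loci.

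For the 91 members with another locus on the contig, the nearest one was upstream on the same strand in 29 (31.9%) and downstream on the same strand in 15 (16.5%). The isolated multi-exon loci with a neighbour showed the opposite order, 19 of 116 (16.4%) upstream and 47 (40.5%) downstream on the same strand. A neighbour on the opposite strand lay upstream of 21 members (23.1%) and downstream of 26 (28.6%), against 33 (28.4%) and 17 (14.7%) of the isolated multi-exon loci. The nearest neighbour was itself a single-exon locus for 61 members (67.0%), against 47 (40.5%) of the isolated multi-exon loci. It was also a weakly read locus as a rule, with a median mean count of 4 against 11.1, and reached a mean count of 50 beside 17 members and 41 isolated multi-exon loci. None of these differences was tested.

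The distance to the nearest neighbour ranged from 5102 to 503165 bp with a median of 8769 bp. It was under 20000 bp for 77 of the 91 members and over 100000 bp for 2, MSTRG.14374 and MSTRG.22391. The members just inside the limit were MSTRG.52026 (5102 bp) and MSTRG.47210 (5105 bp), and the loci just outside it were MSTRG.21519 (4926 bp) and MSTRG.41309 (4897 bp). On strand, 113 members (59.5%) were read from the plus strand, against 81 (42.6%) in each of the comparison groups and 50.1% of the 24300 loci that passed the filter on low counts.

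The exon length of the members had a median of 3291 bp, with quartiles of 1930 and 4294 bp and a range of 313 to 8369 bp. The summed exon length of the abundance-matched multi-exon loci had a median of 2913 bp, and that of the isolated ones 2796 bp. The span on the genome differed more, since introns add to it, with medians of 3291 bp in the members, 7458 bp in the isolated multi-exon and 11434 bp in the multi-exon loci. There were 19 members under 1000 bp and 35 over 5000 bp. The 4 longest were MSTRG.43040 (8369 bp), MSTRG.31884 (8111 bp), MSTRG.48786 (7428 bp) and MSTRG.54524 (7195 bp), and the 4 shortest MSTRG.54976 (313 bp), MSTRG.50017 (328 bp), MSTRG.14537 (331 bp) and MSTRG.54544 (377 bp).

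A block is a merger of the exons of all transcripts that StringTie built at a locus. In 160 members (84.2%) the table held 1 exon entry, and in 30 it held several that overlapped or repeated each other, most often 3 (11 members). At the extreme, MSTRG.49318 on contig PIZI01003112.1 (bases 6208 to 12643, plus strand), alone on its contig, had 49 entries in 1 block of 6436 bp, and was chosen for mention after its values were seen. Its counts were 450, 317 and 278 in the GABA-treated and 390, 325 and 354 in the control samples.

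The median level of the members was close to that of all loci tested. The members had a median of 7.73 CPM, quartiles of 5.47 and 13.6 CPM and a range of 3.75 to 485 CPM. All loci tested had a median of 7.68 CPM and quartiles of 1.89 and 34.7 CPM. This is a description, since the count minimum set its lower end and the comparison groups were matched to it. Under 10 CPM lay 116 members and above 20 CPM 27. In raw counts, the mean over the 6 samples was under 100 for 88 members and at least 500 for 12. Per kilobase of exon the median was 3.04 CPM in the members, 3.43 in the isolated multi-exon and 3.27 in the multi-exon loci. Across the 190 members, exon length and CPM had a Spearman rho of 0.22, given as a description of loci that share libraries.

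One locus held a large part of the reads. MSTRG.47107, alone on contig PIZI01001787.1 (bases 20342 to 23248, plus strand, 2907 bp), had 7326, 6730 and 5820 counts in the GABA-treated and 7238, 6369 and 5480 in the control samples. The groups overlapped, at 473 ± 32.2 CPM in GABA-treated and 497 ± 28.3 CPM in control samples (SD, n = 3 each). Its counts made up 17.0% of all counts on members, and it stood 5.93 times above the second locus in CPM and first also per kilobase, at 167 CPM per kb. The next 9 loci held 19.6% of the counts.

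The second in level was MSTRG.43613 (PIZI01000524.1, bases 47780 to 51943, minus strand), with counts of 1279, 1104 and 1049 in GABA-treated and 1020, 952 and 1142 in control samples. MSTRG.43040 followed, which was also the longest member (PIZI01000420.1, bases 51515 to 59883, plus strand), with 880, 965 and 965 counts in GABA-treated and 1108, 1002 and 879 in control samples. In MSTRG.46619, alone on contig PIZI01001552.1, the counts were 1033, 871 and 860 in GABA-treated and 954, 866 and 917 in control samples. After scaling to CPM, the groups of MSTRG.43613 and MSTRG.46619 overlapped, whereas the 3 GABA-treated samples of MSTRG.43040 all lay below the 3 control samples. The remaining pair of the 6 highest, MSTRG.10686 and MSTRG.13958, lay on contigs with 605 and 598 loci and were read at 66.6 and 65.5 CPM. The groups of MSTRG.10686 overlapped, and the 3 GABA-treated samples of MSTRG.13958 all lay below the 3 control samples, at 61.5 ± 1.23 CPM against 69.5 ± 5.21 CPM (SD, n = 3 each). Of all loci tested, 6.37% were lower without overlap. In the edgeR test given below, the adjusted p was 0.734 for MSTRG.43040 and 0.744 for MSTRG.13958.

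Per length, a fixed count minimum sets a higher floor for short loci than for long ones. The shortest member, MSTRG.54976 (313 bp, alone on contig PIZI01008208.1), had 200, 226 and 228 counts in GABA-treated and 239, 233 and 191 in control samples, and at 52.7 CPM per kb it was second only to MSTRG.47107. Among the 4 longest, MSTRG.43040 was at 8.67 CPM per kb, above the members' median, and MSTRG.31884 at 1.82, MSTRG.54524 at 1.42 and MSTRG.48786 at 0.737, the lowest of all members, were below it. At the count minimum itself, the members just inside were MSTRG.47319 (mean count 50) and MSTRG.57130 (50.3), and the loci just outside MSTRG.47170 and MSTRG.50619 (49.8 each).

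**Figure D2:**
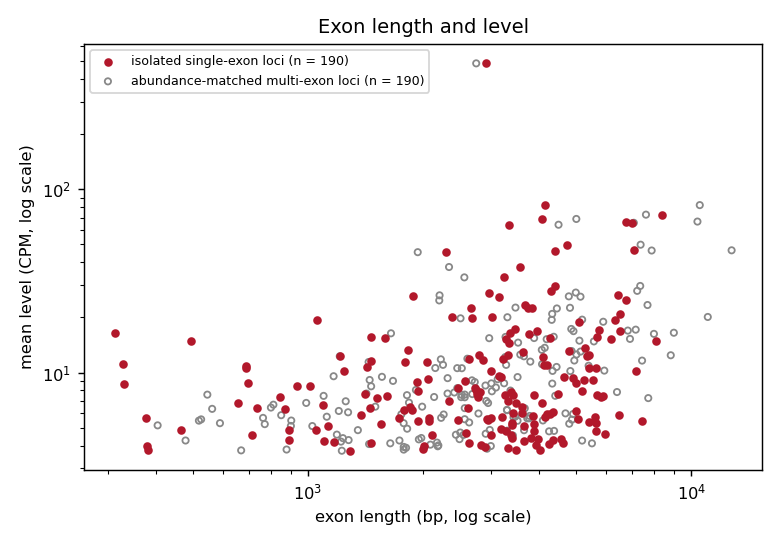
Mean level (CPM, log scale) against exon length (bp, log scale) for the 190 isolated single-exon loci and the 190 abundance-matched multi-exon loci, 1 point a locus. Members ran from 313 to 8369 bp, and MSTRG.47107 stood apart from the others at 485 CPM.

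The 190 loci together took a nearly constant part of each library, 0.286, 0.290 and 0.273% of the counts in the GABA-treated and 0.285, 0.284 and 0.284% in the control samples. The mean was 0.283% ± 0.0085 in GABA-treated and 0.284% ± 0.00046 in control samples (SD, n = 3 each), and the groups overlapped. This was not particular to the members. Over the 6 libraries, the abundance-matched multi-exon loci took 0.273 to 0.290% and the isolated multi-exon loci 0.275 to 0.294%.

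Replicates of the members varied by a similar amount to those of multi-exon loci at the same level. The within-group coefficient of variation (CV, the SD between replicates pooled over both groups as a percentage of the mean) had a median of 14.3% in the members, with quartiles of 9.60 and 18.4%. It was 13.2% in the abundance-matched multi-exon and 13.3% in the isolated multi-exon loci. Counting noise alone would give a median of 9.82% at the members' counts. A CV over 30% was found in 8 members (4.21%), in 8 multi-exon loci (4.21%) and in 17 isolated multi-exon loci (8.95%). Members that were alone on their contig had a median CV of 14.3% and those with other loci 14.4%. Across the members, the CV fell with the level (Spearman rho −0.45, a description over 190 loci that share libraries).

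The member with the lowest CV was MSTRG.51928 (PIZI01005079.1, bases 8892 to 12234, plus strand), with 931, 908 and 847 counts in the GABA-treated and 884, 778 and 780 in the control samples, and a CV of 2.44%. MSTRG.50223 (3.93%), MSTRG.14374 (4.16%) and MSTRG.49324 (4.67%) followed. Counting noise alone would give 3.42% for MSTRG.51928, 9.49% for MSTRG.50223, 4.02% for MSTRG.14374 and 9.68% for MSTRG.49324. These low values are therefore no measure of unusually steady expression. MSTRG.14374 (PIZI01000019.1, bases 14852317 to 14859391, plus strand, 7075 bp) was also the most remote, 503165 bp from the nearest locus, with 649, 577 and 616 counts in GABA-treated and 695, 618 and 559 in control samples. At the other end of the ordinary range, MSTRG.19131 (CV 43.9%) had 123, 71 and 46 counts in GABA-treated and 39, 63 and 32 in control samples. MSTRG.53585 (39.0%) and MSTRG.56027 (36.0%), each alone on its contig, likewise varied within both groups.

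**Figure D3:**
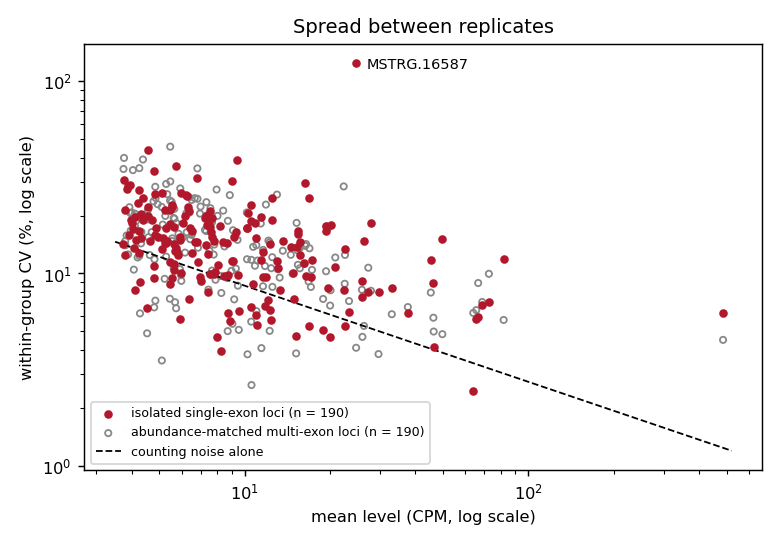
Within-group CV (%, log scale) against mean level (CPM, log scale) for the 190 isolated single-exon and the 190 abundance-matched multi-exon loci, 1 point a locus; the dashed line is the CV that counting noise alone gives. Both groups lie in the same band, with medians of 14.3% and 13.2%, and MSTRG.16587 stands apart at 124%.

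One member was all but absent from some libraries and well read in others. MSTRG.16587 (PIZI01000023.1, bases 14400380 to 14407149, plus strand, 6770 bp, the last locus of its contig) had 493, 838 and 5 counts in the GABA-treated and 2, 1 and 637 in the control samples. GABA 1, GABA 2 and Control 3 held 1968 of its counts, and GABA 3, Control 1 and Control 2 held 8. High and low libraries thus occurred in both groups. Its CV was 124%, whereas no abundance-matched multi-exon locus exceeded 45.6%. A lowest library under 5% of the highest was found in 12 of the 15048 loci with a mean count of at least 50 (0.0797%), and among the 190 members in MSTRG.16587 alone (0.526%). The next lowest ratio among the members was 26.0%.

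In the whole table, 4 other loci were high and low in the same libraries. They were found by a rule set after the counts of MSTRG.16587 were seen, at least 10 counts in each of GABA 1, GABA 2 and Control 3 and at least 20 times the other libraries, so that their agreement is a description. All 4 had 1 exon block but were not members, since each had another locus within 5000 bp, and MSTRG.52058 and MSTRG.52059 also lay under the count minimum, at mean counts of 38 and 49. On the same contig, MSTRG.16582 (bases 14302636 to 14305872, minus strand) had 124, 223 and 1 counts in GABA-treated and 0, 0 and 153 in control samples, and MSTRG.16583 had 100, 168 and 0 in GABA-treated and 0, 0 and 111 in control samples. On contig PIZI01005203.1, which held no further locus, MSTRG.52058 had 61, 100 and 0 counts in GABA-treated and 0, 0 and 67 in control samples, and MSTRG.52059 had 67, 131 and 0 in GABA-treated and 0, 0 and 96 in control samples. In the high libraries the 4 loci kept a near constant proportion to MSTRG.16587, at 24.0 to 26.6%, 17.4 to 20.3%, 10.5 to 12.4% and 13.6 to 15.6% of its counts.

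Around MSTRG.16587, the better-read loci were higher in the same 3 libraries, and the rest were too weakly read to tell. Within 120 kb lay 9 other loci, of which MSTRG.16582 and MSTRG.16583 shared its libraries. The nearest, MSTRG.16586, had 31, 30 and 9 counts in GABA-treated and 5, 2 and 45 in control samples, higher in the same 3 libraries but not absent from the others. MSTRG.16585 was also higher in these 3 libraries, with 12, 25 and 5 counts in GABA-treated and 0, 3 and 20 in control samples. MSTRG.16580 had 3, 12 and 10 counts in GABA-treated and 6, 6 and 4 in control samples, without this split. Its mean count was only 6.83, which limits what can be seen at it. The same limit holds for MSTRG.16578, MSTRG.16579, MSTRG.16581 and MSTRG.16584, at mean counts of 2.83 to 6.67. Each library held 4 larvae, and the labels hold nothing that sets the 3 high libraries apart. The cause of the split was not tested. Without MSTRG.16587 and MSTRG.47107, the members took 0.233, 0.234 and 0.230% of the counts in GABA-treated and 0.234, 0.233 and 0.234% in control samples.

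**Figure D4:**
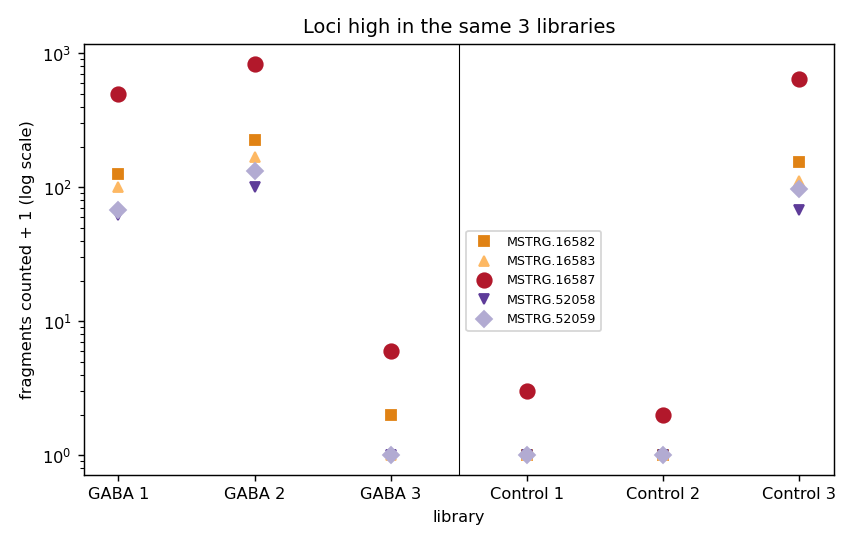
Fragments counted plus 1 (log scale) in each library, the 3 GABA-treated left and the 3 control libraries right of the line, for MSTRG.16587 and the 4 loci high in the same libraries. All 5 are high in GABA 1, GABA 2 and Control 3 and have at most 5 counts in the other libraries.

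No isolated single-exon locus passed the threshold for a change with GABA treatment. With edgeR (quasi-likelihood, Benjamini-Hochberg adjusted over the 24300 loci that were tested), 0 of 190 members had an adjusted p under 0.05, with a smallest adjusted p of 0.729, and the share over all loci was 0.0%. All 190 members passed the filter on low counts. At an unadjusted p under 0.05 stood 9 members (4.74%), 2 higher (1.05%) and 7 lower (3.68%), against 6.55% of all loci tested, 3.08% higher and 3.47% lower. DESeq2 gave 12 of the members an adjusted p and called 0 of them, against 23 of the 5990 loci that had one (0.384%). The loci that the study called with DESeq2 had been left out of the members, so this 0 is no independent result. At an unadjusted p under 0.05, DESeq2 put 5 members (2.63%), against 2.12% of the 54018 loci with a p. Those loci were not filtered on low counts, so this share is not on the same base as that of edgeR. The CPM of the groups did not overlap in 21 members (11.1%), 5 higher (2.63%) and 16 lower (8.42%), against 12.3% of all loci, 5.98% higher and 6.37% lower. In both edgeR's unadjusted p and the overlap of the groups, the share of members in either direction together was below that of all loci, whereas lower without overlap was the more frequent among the members, a difference that was not tested. The abundance-matched multi-exon and isolated multi-exon loci had similar shares, 4.21% and 4.74% at that unadjusted p and 11.1% and 8.95% without overlap. Lower without overlap were 6.32% and 4.74% of them. With 3 against 3 samples, an exact permutation test of a single locus cannot give a two-sided p below 0.1.

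The smallest p among the higher loci belonged to MSTRG.51537 (PIZI01004788.1, bases 1 to 3227, plus strand), with 174, 202 and 187 counts in GABA-treated and 143, 120 and 132 in control samples. The groups did not overlap, and its log2 fold change was 0.38 (SE 0.13, edgeR adjusted p = 0.729). MSTRG.48490 (PIZI01002596.1, bases 5380 to 6036, minus strand) had 118, 87 and 119 counts in GABA-treated and 78, 77 and 71 in control samples, again without overlap and with a log2 fold change of 0.39 (SE 0.18, adjusted p = 0.762).

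Among the lower loci, MSTRG.54616 (PIZI01007716.1, bases 1 to 3338, plus strand) had 201, 173 and 155 counts in GABA-treated and 262, 168 and 206 in control samples. Its CPM overlapped between the groups, with a log2 fold change of −0.39 (SE 0.14, edgeR adjusted p = 0.729). In MSTRG.22391 of the contig with 3 members, the counts were 51, 45 and 42 in GABA-treated and 58, 70 and 57 in control samples, without overlap and with a log2 fold change of −0.56 (SE 0.20, adjusted p = 0.729). None of the 4 passed the adjusted threshold. MSTRG.16587 had the largest log2 fold change of the members, 0.83, with an SE of 1.24 (adjusted p = 0.929). It was −0.05 without GABA 2 and 8.01 without Control 3, so that single libraries set its size and sign.

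The members' fold changes were small and centred just below 0. Their median log2 fold change was −0.03 (quartiles −0.14 and 0.09), against 0.01 over all loci tested. It was −0.02 in the isolated multi-exon and 0.03 in the multi-exon loci. The fitted value was below 0 in 112 members (58.9%) and in 48.5% of all loci tested, and with scaling by library size only in 90 members (47.4%) and in 38.2% of all loci. Under that scaling the medians of members and of all loci both shifted upwards, to 0.01 and 0.05, and the difference between them was −0.03 under both scalings. That difference was −0.05 with DESeq2, where all loci were taken without the filter on low counts. With edgeR it ran from −0.06 without GABA 2 to −0.02 without Control 3. The value below 0 was most frequent among the 35 members over 5000 bp, at 28 of 35 (80.0%, median log2 fold change −0.07), against 18 of 36 isolated multi-exon and 16 of 32 multi-exon loci of that length and 53.9% of all such loci. It held for 24 to 27 of the 35 with single libraries left out. With library size only it held for 20, under which 38.2% of all loci of any length lay below 0. Of these 35 members, 2 (5.71%) had an unadjusted p under 0.05, against 5.68% of all loci over 5000 bp. No test of these shares was made.

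The glial marker VIM, an intermediate filament gene of radial glia, was at 484 to 598 CPM in GABA-treated and 599 to 771 CPM in control samples, without overlap. Its symbol, like those of the other markers, comes from the study's lists of changed loci, so VIM is not taken as an independent measure of glia. Its part in the small shift of the members was not tested. In bulk RNA, fewer cells of a type and less RNA per cell cannot be told apart.

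**Figure D5:**
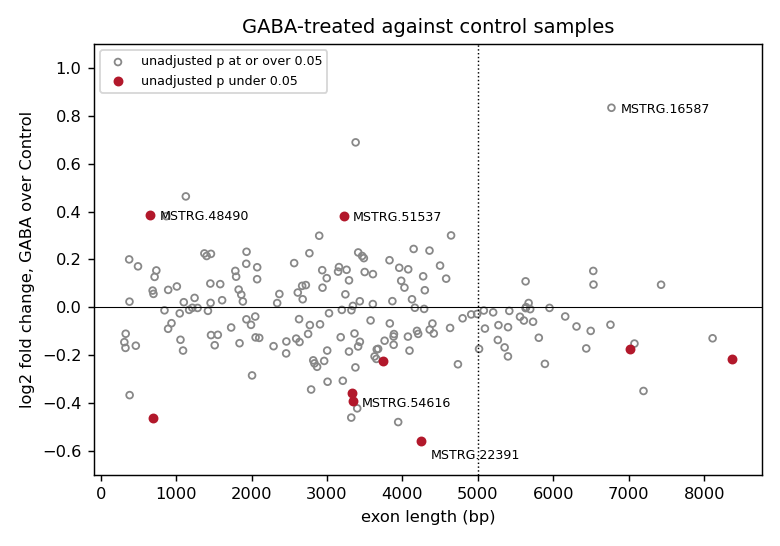
Log2 fold change of GABA-treated over control samples (edgeR) against exon length (bp) for the 190 isolated single-exon loci, 1 point a locus; filled points have an unadjusted p under 0.05, the solid line is 0 and the dotted line 5000 bp. Of the 35 loci right of the dotted line, 28 lie below 0, and no locus passed the adjusted threshold.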

How the data were processed

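Reads went through fastp, STAR (Pmar_germline 1.0), StringTie and a stranded fragment count with featureCounts, all run by the authors. The deposited values are whole-number counts without normalization, and 0 sample columns were unmatched. Near-identical copies were not separated here. Rows of 2 loci broken over 2 lines were rejoined. Distances ran between whole spans, introns included, and positions count from 1. For the test, edgeR 4.0.16 in R 4.3.3 was used after filterByExpr and TMM, with condition as its single factor. DESeq2 1.42.0, other scalings, no filter, other limits of the selection rule, a replicate block and each sample left out were alternatives, and members with 1 exon entry only were an alternative chosen after seeing the data. The fits were tested on simulated counts. Named loci were those with the smallest p (2 higher, 2 lower), the 6 highest in CPM, the 4 longest, shortest, most and least variable, and those next to each limit. Members, lists and tests were chosen with earlier results of these data known. Replicates are pools of different larvae, and p-values measure the spread between pools. Figures were drawn with Python 3.11.15 and matplotlib 3.10.9.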

Additional observations from a re-analysis of the deposited data

How the results depend on the processing

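The number of isolated single-exon loci was 190 and became 386 with a minimum mean count of 20 and 102 with a minimum of 100. Distances of 2000 and 10000 bp gave 271 and 139, distances to exon blocks only 267, and neighbours with at least 1 count only 214. No member was called in any of the fits run. The count at an unadjusted p under 0.05 was 9 (4.74%, against 6.55% of all loci), with 5 under library size only (2.63%, against 6.68%). Under DESeq2 it was 5 (2.63%, against 2.12% of loci not filtered on low counts). With each sample left out it was 5 to 13, the fewest without GABA 2 (2.63%, against 4.41%) and the most without GABA 1 (6.84%, against 8.88%). The median log2 fold change of −0.03 became 0.014 with library size only, −0.042 with DESeq2, −0.039 in the 160 members with 1 exon entry only, an alternative chosen after seeing the data, and −0.057 to −0.016 with each sample left out. The median CV was 12.7 to 13.6% in the members and 11.2 to 13.1% in the abundance-matched multi-exon loci with each sample left out, by construction on fewer samples. For MSTRG.16587 the log2 fold change was −0.047 without GABA 2 and ranged up to 8.01 over the samples left out. The cause was not tested for the other changes. With a replicate block, 7 members (3.68%, against 5.48% of all loci) had an unadjusted p under 0.05, 0 were called and the median log2 fold change was −0.024. Samples with the same number did not deviate together (correlations of −0.112, 0.032 and −0.116), and the largest correlation was 0.173, between GABA 1 and Control 3. This gave no sign that the numbers pair the samples, but with 3 samples a group it cannot exclude it. With no filter on low counts, edgeR called 58 of 54031 loci, of which 0 were members. DESeq2 gave 5990 loci a defined adjusted p, 12 members among them, and called 23 (0.384%), of which 0 were members. The members leave out the loci that the study called with DESeq2, so this last 0 is no independent result. At mean counts between 50 and 100, as in 88 members, counting noise limits what can be seen at single loci.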
